A study of Mus musculus with 11 samples.

Results

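Fibroblast growth factor (FGF) signalling genes were followed in the Gsh2 lineage of the newborn mouse forebrain, in cells labelled KO (Zeb2fl/ko) and Ctrl (Zeb2fl/wt). By this design KO cells would lack Zeb2 and Ctrl cells would keep 1 intact allele. The 39 genes are the FGF ligands, the intracellular FGF homologues Fgf11 to Fgf14, the receptors, the receptor adaptors Frs2 and Frs3, the Sprouty, Spred, Dusp and Etv genes of the feedback loop, and the Flrt genes. They were picked by symbol among the 39179 genes of the count table and all 39 were found. The 27 with a mean of at least 0.5 CPM (counts scaled to the library total) over the 11 libraries were tested, among 15227 genes tested in all. Nearest to that limit were Fgf1 inside it, at 1.68 CPM, and Fgf7 outside it, at 0.463 CPM.

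RNA came from GFP+ cells sorted from the ventricular-subventricular zone (V-SVZ) of CD1/Swiss mice at postnatal day 2. The 5 KO libraries came from Gsh2-Cre; Zeb2fl/ko animals, with 1 floxed and 1 null Zeb2 allele, and the 6 Ctrl libraries from Gsh2-Cre; Zeb2fl/wt animals, with 1 floxed and 1 wild-type allele. Both groups carried the Cre driver and the RCE reporter, which gives GFP after Cre recombination, so Ctrl cells would also have lost a Zeb2 copy, and the null allele of the KO animals was present in every cell of the animal. Separate animals are not stated for the libraries, so the p-values describe the spread between these libraries.

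Depth was 9180749 to 13073505 counts in the KO libraries and 6833981 to 12050518 in the Ctrl libraries. All 12 markers of the ventral forebrain GABAergic lineage were tested, with a summed level of 3873 to 5021 CPM in KO and 2984 to 4571 CPM in Ctrl. Zeb2 itself, counted over the whole gene, stood at 202 to 373 CPM in KO and 152 to 285 CPM in Ctrl, so this count did not check the genotype and the directions rest on the labels. Counts of 4 Y-linked genes were 0 in all 5 KO libraries and in Ctrl 4 and Ctrl 5, and above 0 in the other 4 Ctrl libraries, so sex and genotype were partly confounded. The libraries are bulk samples of sorted cells, in which fewer cells of a type and less RNA per cell cannot be told apart. Library KO 5 had 210.3 CPM of summed choroid plexus markers, against at most 10.9 CPM in any other library. Of that sum 203.7 CPM came from Ttr, 4.73 CPM from Folr1 and 1.91 CPM from Clic6. Kcnj13, Aqp1, Kl and Sostdc1 were at 0 in KO 5. Folr1 stood at no more than 0.461 CPM in any other library, whereas Clic6 reached 8.75 CPM in Ctrl. Ctrl 6 had the highest summed oligodendrocyte precursor markers, 2960 CPM against 887 to 2067 CPM elsewhere.

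Secreted FGFs bind receptor tyrosine kinases together with heparan sulfate, and the adaptor FRS2 passes the signal to the RAS-ERK cascade. ERK signalling induces its own brakes, the Sprouty, Spred and DUSP proteins, and the ETS factors ETV4 and ETV5, whose mRNAs are often used as a readout of FGF activity. Fgf11 to Fgf14 encode homologues that are not secreted and bind voltage-gated sodium channels in neurons. FLRT proteins are transmembrane proteins that associate with FGF receptors and also bind UNC5 receptors and latrophilins, and in the developing mouse cortex FLRT2 repels migrating neurons that carry UNC5D. In the forebrain, FGF receptors sustain radial glia and shape the early ventral telencephalon.

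Levels were compared between genes per kilobase of exon, as CPM scaled by TMM factors and divided by the summed length of the annotated exons. Dusp4, a nuclear phosphatase gene of the ERK pathway, stood at 50.6 ± 5.87 CPM per kb in KO and 39.2 ± 17.7 in Ctrl (SD, n = 5 and 6). Fgf13 stood at 46.3 ± 7.14 CPM per kb in KO and 41.7 ± 4.10 in Ctrl, so Dusp4 had the highest mean in KO and Fgf13 in Ctrl, and they did not differ beyond their spread. In KO, Flrt3, Spry2, Dusp6, Flrt2 and Etv5 followed, with means of 23.9, 20.7, 13.7, 10.3 and 8.08 CPM per kb. In Ctrl the order was Flrt3, Flrt2, Spry2, Dusp6 and Etv5, with 26.4, 20.5, 14.7, 13.8 and 11.3 CPM per kb, so Flrt2 ranked below Spry2 and Dusp6 in KO and above them in Ctrl. Among the receptors Fgfr2 and Fgfr3 averaged 5.83 and 4.24 CPM per kb in KO and 4.68 and 5.37 in Ctrl, a pair within each other's spread. Fgfr1 followed with 2.87 CPM per kb in KO and 2.84 in Ctrl. Of the secreted ligands Fgf9 had the highest mean in KO, 1.41 CPM per kb against 0.904 for Fgf3, and Fgf3 in Ctrl, 4.39 CPM per kb against 0.535 for Fgf9.

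**Figure D1:**
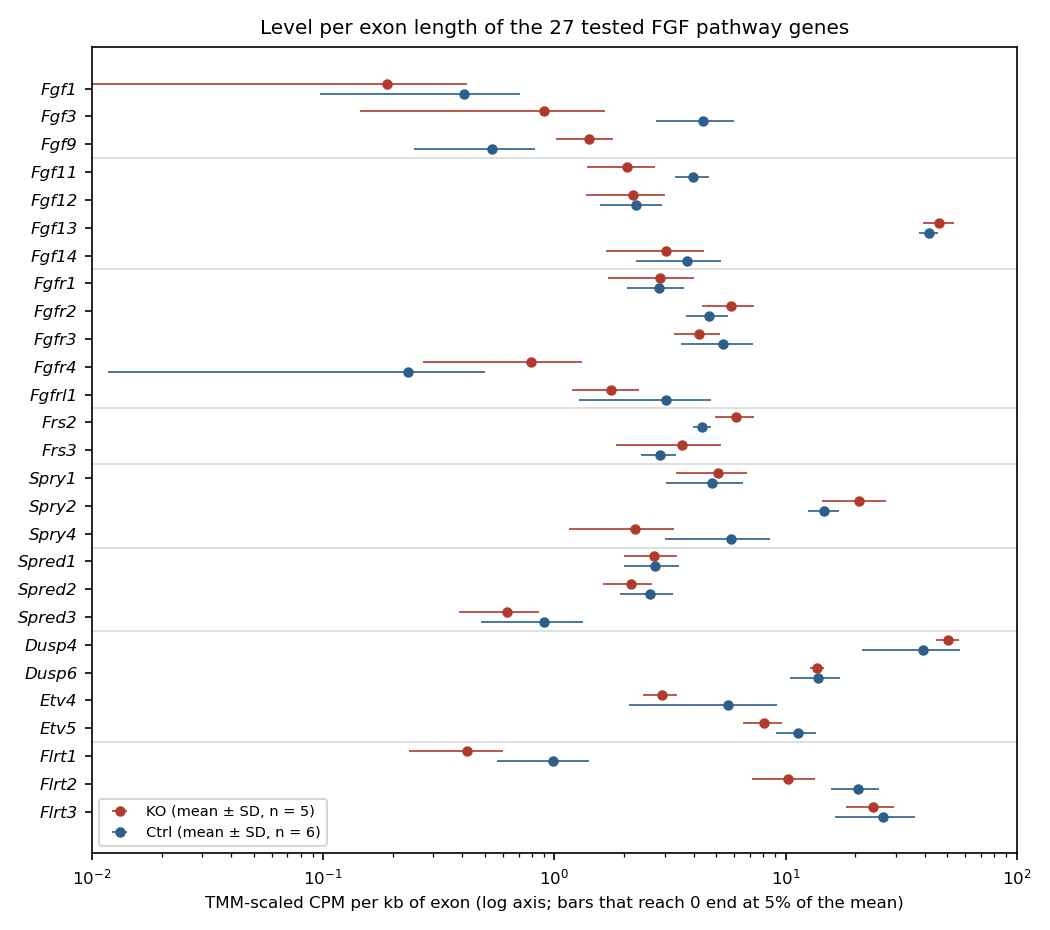
TMM-scaled CPM per kb of exon (x, log axis) of the 27 tested genes (y, grouped by class), as mean ± SD of 5 KO libraries (red) and 6 Ctrl libraries (blue). Dusp4 and Fgf13 stand highest in both groups.

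Of the 14 secreted ligand genes 11 did not reach the level for testing. Fgf2, a ligand that is known to sustain neural stem cells in culture, was listed at 0 counts in all 11 libraries, as was Spry3. Spry3 was annotated on a scaffold outside the assembled chromosomes (GL456233.1), and whether its 0 counts came from the alignment was not tested. A count of 0 allows up to 3 counts, or 0.229 to 0.439 CPM in these libraries, and covers counting error only. Fgf8, Fgf16, Fgf17 and Fgf20 had 4, 2, 2 and 4 counts over the whole series, and Fgf10, Fgf18 and Fgf22 had 19, 15 and 13. Fgf5, Fgf7 and Fgf15 had 42, 53 and 45 counts, unevenly spread: Fgf5 was counted in 3 libraries, Fgf15 in 4 and Fgf7 in 6. Exons of Fgf2, Fgf15, Fgf20 and Fgf22 overlap a gene on the opposite strand with a mean of at least 1 CPM, so these counts are uncertain.

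In KO cells 3 of the 27 tested genes were lower at an adjusted p of 0.05 (edgeR, quasi-likelihood test, Benjamini-Hochberg over all 15227 genes), Flrt2, Fgf3 and Fgf11. That is 11.1% of them, against 1.62% of all tested genes called lower. The members were chosen with earlier results of these data known, and how far this raised the share was not tested. No gene was called higher, where 2.52% of all tested genes were; DESeq2 called 2 higher and limma-voom 0. At an unadjusted p of 0.05 3 were higher and 7 lower, together 37.0% of the 27, against 16.8% of all tested genes in either direction. Fgf9 was the single member whose KO libraries all lay above the Ctrl libraries, or 3.70% of 27 against 2.74% of all tested genes. None lay below without overlap, where 1.93% of all tested genes did. The median log2 fold change was -0.14 over the tested members and -0.02 over all tested genes. With the Y-linked level as a covariate 0 members were called lower, where 56 of 15227 tested genes were. Among libraries without Y-linked counts 0 members were called lower, where 59 of 15214 tested genes were.

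**Figure D2:**
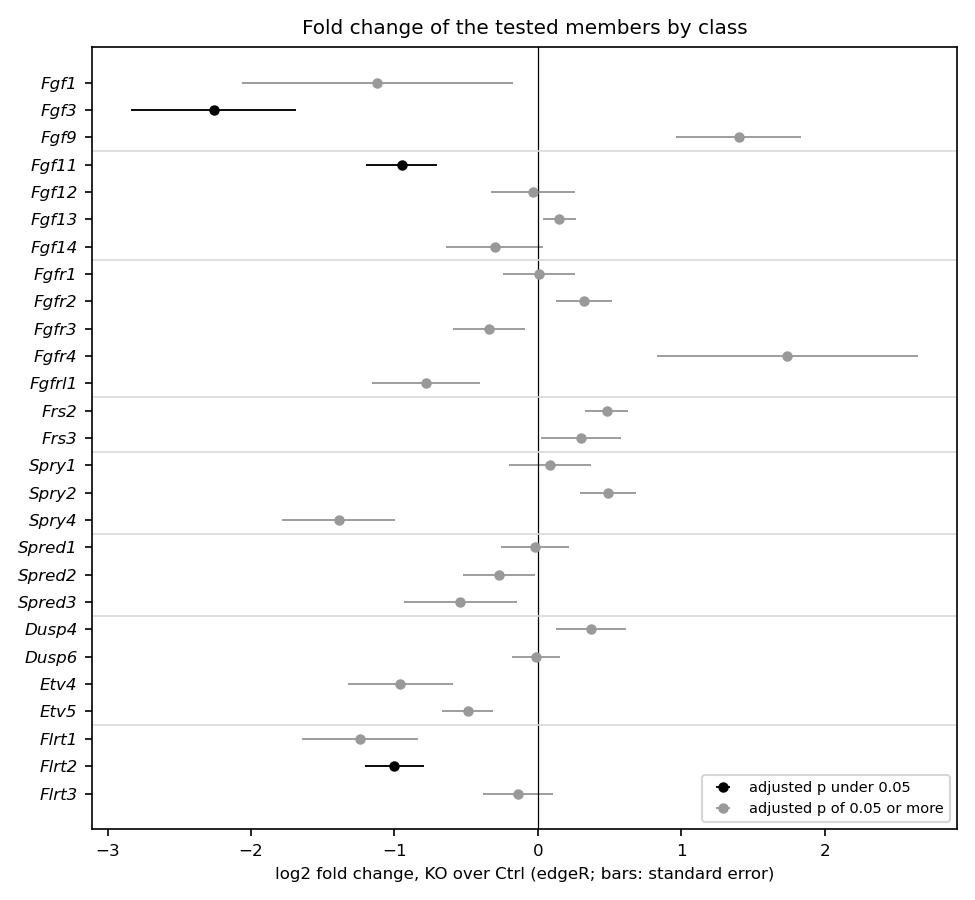
log2 fold change of KO over Ctrl (x) for each tested gene (y, grouped by class), with its standard error as a bar. The genes in black, Fgf3, Fgf11 and Flrt2, passed an adjusted p of 0.05 and all lie left of 0.

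The promoters of the 3 genes called lower are shown because Zeb2 is a DNA-binding repressor whose zinc fingers recognise CACCT, and ETS factors recognise a CCGGAA core. Each window runs from 250 bases before to 50 bases after the RefSeq start (GRCm38.p6), 5′ to 3′ on the gene's strand, with matches to either motif, on either strand, in capitals. The windows are chr12:95691976-95692275 (plus strand) for Flrt2, chr7:144838362-144838661 (plus strand) for Fgf3 and chr11:69802231-69802530 (minus strand) for Fgf11. For Fgf3 and Fgf11 the RefSeq start differs from the GENCODE gene coordinates given below. The Fgf3 window lies inside the GENCODE gene, which starts at 144838083. The Fgf11 window lies wholly outside the GENCODE gene, whose 5′ end is at 69801857.
Flrt2: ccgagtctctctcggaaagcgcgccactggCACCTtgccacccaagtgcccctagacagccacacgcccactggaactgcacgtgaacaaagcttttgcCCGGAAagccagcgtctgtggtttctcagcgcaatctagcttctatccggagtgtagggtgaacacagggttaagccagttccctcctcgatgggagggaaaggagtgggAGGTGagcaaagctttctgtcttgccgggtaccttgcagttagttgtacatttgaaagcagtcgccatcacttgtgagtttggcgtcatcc
Fgf3: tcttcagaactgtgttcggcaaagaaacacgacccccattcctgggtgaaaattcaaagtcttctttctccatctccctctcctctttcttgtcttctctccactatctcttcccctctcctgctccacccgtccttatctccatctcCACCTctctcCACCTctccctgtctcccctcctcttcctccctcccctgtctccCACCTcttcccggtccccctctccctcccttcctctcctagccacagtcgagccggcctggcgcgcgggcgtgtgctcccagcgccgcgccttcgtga
Fgf11: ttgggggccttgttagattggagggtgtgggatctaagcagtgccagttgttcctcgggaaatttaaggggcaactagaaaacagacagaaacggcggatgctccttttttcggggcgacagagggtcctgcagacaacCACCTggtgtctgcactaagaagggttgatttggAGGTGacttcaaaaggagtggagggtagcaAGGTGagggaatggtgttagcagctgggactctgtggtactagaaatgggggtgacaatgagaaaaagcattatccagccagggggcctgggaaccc
Flrt2 held 2 CACCT matches and 1 CCGGAA match, and Fgf3 and Fgf11 held 3 CACCT matches each and no CCGGAA match. CACCT occurred at least once in 45.7% of the 35 windows of member genes and in 51.9% of all 32851 windows of this length. CCGGAA occurred at least once in 20% of member windows and 14.9% of all windows. Shares of windows with 2 or 3 matches were not counted, so the match counts above have no background beside them. A match describes letters in the window and says nothing of binding. The motifs do not overlap in these 3 windows.

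Among the secreted ligands Fgf3 (chromosome 7, 144838083 to 144844436) was lower. It stood at 2.92, 2.00, 0.655, 0.30 and 4.64 CPM in KO 1 to KO 5, and at 2.77, 11.01 and 13.4 CPM in the lowest, median and highest Ctrl library. The lowest Ctrl library was Ctrl 6, which lay among the KO libraries; the other 5 Ctrl libraries were all above 10.6 CPM. The log2 fold change was -2.26 (SE 0.575, adjusted p = 0.0388). The call held in 2 of 11 fits without 1 library, those without Ctrl 6 (adjusted p = 0.0162) and without KO 5 (adjusted p = 0.0170), and was lost without each other library (adjusted p from 0.0593 to 0.0953), with log2 fold changes of -2.79 to -1.98 throughout. Fgf3 also missed the threshold among the 7 libraries without Y-linked counts (log2 fold change -2.43, adjusted p = 0.185).

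Fgf9, whose product signals through FGFR3 among others and was first described as a glia-activating factor, had the opposite sign. It stood at 8.29, 7.20, 7.86, 5.54 and 3.90 CPM in KO 1 to KO 5, and at 0.776, 3.07 and 3.76 CPM in the lowest, median and highest Ctrl library. No KO library reached as low as a Ctrl library, although KO 5 and Ctrl 4 were close. The log2 fold change of 1.4 (SE 0.434) did not pass (adjusted p = 0.0957; 0.0330 with DESeq2). Fgf1 averaged 1.03 ± 1.25 CPM in KO and 2.21 ± 1.68 CPM in Ctrl (SD, n = 5 and 6; adjusted p = 0.613), with 0 counts in KO 2 and KO 5 and its highest level in Ctrl 6.

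Of the intracellular homologues Fgf11 (chromosome 11, 69796068 to 69801857) was lower. Its level was 6.45, 5.50, 4.80, 9.74 and 4.81 CPM in KO 1 to KO 5, and 9.09, 12.2 and 14.7 CPM in the lowest, median and highest Ctrl library. Only KO 4 reached into the Ctrl range, above Ctrl 5. The log2 fold change was -0.95 (SE 0.248, adjusted p = 0.0444). The call held in the fits without KO 4 (adjusted p = 0.0179) and without Ctrl 5 (adjusted p = 0.0403) and was lost without each other library (adjusted p from 0.0579 to 0.116), and among libraries without Y-linked counts the log2 fold change was -0.92 (adjusted p = 0.376).

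Fgf13, which also encodes a microtubule-binding protein of migrating mouse cortical neurons, held most of the reads of this class. Its level was 163, 220.0, 189, 152 and 207 CPM in KO 1 to KO 5, and 137, 171 and 184 CPM in the lowest, median and highest Ctrl library. The groups overlapped and the log2 fold change was 0.15 (SE 0.117, adjusted p = 0.578). Fgf14, the gene mutated in a hereditary ataxia in humans, stood at 13.4, 9.90, 20.7, 14.5 and 5.22 CPM in KO 1 to KO 5, and at 9.64, 14.1 and 26.4 CPM in the lowest, median and highest Ctrl library (log2 fold change -0.30, adjusted p = 0.723). Fgf12 had similar means, 13.6 ± 5.12 CPM in KO and 14.0 ± 4.21 CPM in Ctrl.

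Of 10 tested partners of these homologues, mainly sodium channel subunits, Scn1a rose and 9 did not pass. Over all tested genes 2.52% were called higher. Scn1a averaged 23.8 ± 5.43 CPM in KO and 11.97 ± 4.35 CPM in Ctrl (log2 fold change 0.99, adjusted p = 0.0368), a call that held in 4 of 11 fits without 1 library and was lost among libraries without Y-linked counts (log2 fold change 0.97, adjusted p = 0.216). The median log2 fold change of the 10 was 0.72. Their summed level was 715 to 836 CPM in KO and 498 to 656 CPM in Ctrl, without overlap. No background share was counted for summed levels. The largest parts of the sum were Mapk8ip2, which is not a channel subunit gene, and Scn3b. They averaged 287 and 266 CPM in KO and 233 and 204 CPM in Ctrl. Each overlapped between groups and did not pass. Scn3a, named after its values were seen, averaged 121 ± 39.9 CPM in KO and 61.6 ± 21.9 CPM in Ctrl. It also overlapped and did not pass (log2 fold change 0.98, SE 0.267, adjusted p = 0.0566). Of 10 tested markers of MGE interneurons 6 rose and 2 fell, where 2.52% of all tested genes were called higher and 1.62% lower. These markers summed to 2868 to 3858 CPM in KO and 449 to 758 CPM in Ctrl. Their part in the level of Scn1a and the other partners was not tested.

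No receptor gene passed the test. Fgfr2 stood at 78.3, 36.7, 62.7, 58.1 and 65.1 CPM in KO 1 to KO 5, and at 33.4, 48.0 and 62.0 CPM in the lowest, median and highest Ctrl library (log2 fold change 0.32, SE 0.194, adjusted p = 0.451). Its exons overlap Ctbp2 on the same strand by 314 bases. Fgfr3, a radial glia and astrocyte receptor gene, stood at 35.5, 20.5, 36.6, 25.9 and 33.3 CPM in KO 1 to KO 5, and at 21.4, 41.8 and 50.6 CPM in the lowest, median and highest Ctrl library (log2 fold change -0.34, SE 0.249, adjusted p = 0.542). Both genes spread widely within each group, and the groups overlapped.

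Fgfr1 averaged 28.3 ± 11.5 CPM in KO and 28.1 ± 7.68 CPM in Ctrl (log2 fold change 0.01, SE 0.251). As a share of the per-length signal of Fgfr1 to Fgfr4, Fgfr2 made up 36.3% to 51.3% in KO and 27.9% to 50.6% in Ctrl libraries. The share of Fgfr3 was 26.8% to 35.8% in KO and 28.3% to 49.1% in Ctrl, so both shares overlapped between groups. Fgfr4 had 0.384 to 5.31 CPM in KO and 0 to 2.57 CPM in Ctrl, a log2 fold change of 1.74 with a large error (SE 0.908, adjusted p = 0.362). Fgfrl1, which encodes a receptor without a kinase domain, averaged 4.89 ± 1.58 CPM in KO and 8.43 ± 4.87 CPM in Ctrl, with its highest level in Ctrl 6, at 17.5 CPM. The log2 fold change of Fgfrl1 was -0.78 in all libraries (adjusted p = 0.318) and 0.05 in those without Y-linked counts.

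The adaptor gene Frs2 stood at 55.6, 55.9, 59.4, 60.9 and 35.8 CPM in KO 1 to KO 5, and at 34.0, 39.2 and 41.7 CPM in the lowest, median and highest Ctrl library. The first 4 KO libraries lay above every Ctrl library and KO 5 lay within the Ctrl range. The log2 fold change was 0.48 (SE 0.15, adjusted p = 0.0951), and without KO 5 it was 0.59 and past the threshold (adjusted p = 0.0170). Frs3, the second adaptor gene, stood at 10.7, 20.3, 6.98, 9.36 and 8.21 CPM in KO 1 to KO 5, and at 7.19, 9.08 and 11.3 CPM in the lowest, median and highest Ctrl library (adjusted p = 0.654). Its exons overlap the same-strand gene Tomm6os by 69 bases.

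**Figure D3:**
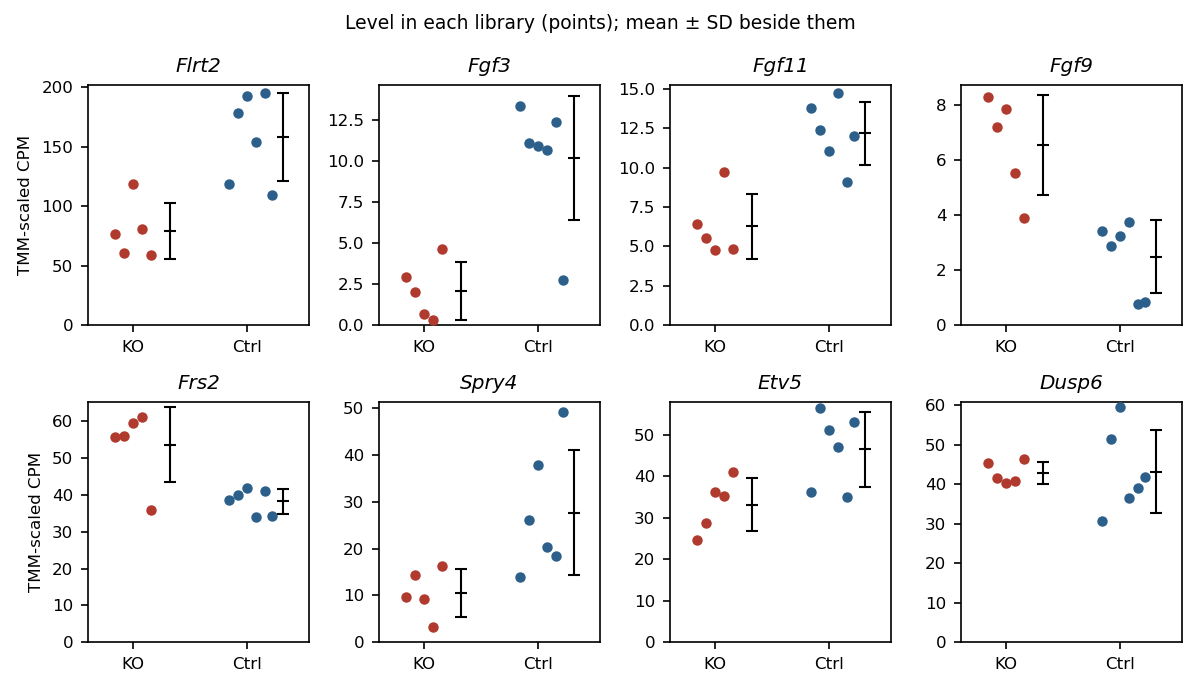
TMM-scaled CPM (y, each panel with its own scale from 0) of 8 members in each of 5 KO (red) and 6 Ctrl (blue) libraries, with mean ± SD beside the points. Fgf9 does not overlap between groups, Frs2 overlaps through KO 5 alone, and Dusp6 has nearly equal means of 43.0 CPM in KO and 43.2 CPM in Ctrl.

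The feedback genes did not move as a block, and none passed the test. Spry2, which encodes an inhibitor of RAS-ERK signalling, stood at 32.7, 34.6, 59.7, 55.9 and 33.4 CPM in KO 1 to KO 5, and at 24.4, 31.4 and 36.6 CPM in the lowest, median and highest Ctrl library (log2 fold change 0.49, SE 0.196, adjusted p = 0.209). KO 3 and KO 4 stood above all Ctrl libraries and the other 3 KO libraries within their range. Spry1 stood at 13.1, 11.5, 23.4, 10.9 and 15.0 CPM in KO 1 to KO 5, and at 8.16, 13.2 and 19.9 CPM in the lowest, median and highest Ctrl library (adjusted p = 0.926).

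Spry4, described although outside the naming rule, after its values were seen, had the opposite sign to Spry2. It stood at 9.59, 14.4, 9.27, 3.30 and 16.3 CPM in KO 1 to KO 5, and at 13.9, 23.3 and 49.0 CPM in the lowest, median and highest Ctrl library. Ctrl 1, the lowest, lay below KO 2 and KO 5, and Ctrl 6 was the highest. The log2 fold change was -1.39 (SE 0.393, adjusted p = 0.0649; DESeq2 0.00718), and -0.87 among libraries without Y-linked counts (adjusted p = 0.523). Of 9 tested oligodendrocyte precursor markers Gpr17 fell and 8 did not pass, where 1.62% of all tested genes were called lower. These markers summed to 887 to 1596 CPM in KO and 1253 to 2960 CPM in Ctrl. Their part in the level of Spry4 was not tested.

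None of the Spred genes, which encode membrane-bound inhibitors of RAF activation, passed the test, and all 3 had log2 fold changes below 0. Spred1 stood at 21.5, 17.1, 23.4, 11.01 and 18.7 CPM in KO 1 to KO 5, and at 13.3, 18.1 and 26.3 CPM in the lowest, median and highest Ctrl library (log2 fold change -0.02, SE 0.236, adjusted p = 0.978). Spred2 stood at 11.1, 5.90, 9.71, 12.1 and 10.6 CPM in KO 1 to KO 5, and at 7.95, 12.2 and 15.3 CPM in the lowest, median and highest Ctrl library (log2 fold change -0.27, SE 0.252, adjusted p = 0.652). Spred3 averaged 3.86 ± 1.45 CPM in KO and 5.63 ± 2.65 CPM in Ctrl (log2 fold change -0.54, SE 0.394, adjusted p = 0.543).

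Dusp6, the cytoplasmic ERK phosphatase gene, stood at 45.4, 41.7, 40.3, 40.9 and 46.5 CPM in KO 1 to KO 5, and at 30.7, 40.6 and 59.5 CPM in the lowest, median and highest Ctrl library. The KO libraries lay close together inside the wider Ctrl range (log2 fold change -0.01, SE 0.166, adjusted p = 0.984). Dusp4 stood at 135, 163, 143, 132 and 120.0 CPM in KO 1 to KO 5, and at 66.9, 85.0 and 170 CPM in the lowest, median and highest Ctrl library. Its Ctrl libraries fell into 4 between 66.9 and 91.9 CPM and Ctrl 1 and Ctrl 4 near 169 CPM, so the KO libraries lay between them (log2 fold change 0.37, adjusted p = 0.490).

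Etv5 and Etv4, described after their values were seen, had negative log2 fold changes that did not pass. Etv5 stood at 24.7, 28.8, 36.1, 35.1 and 40.9 CPM in KO 1 to KO 5, and at 34.9, 49.0 and 56.3 CPM in the lowest, median and highest Ctrl library (log2 fold change -0.49, SE 0.177, adjusted p = 0.161). Etv4 averaged 9.03 ± 1.52 CPM in KO and 17.6 ± 11.04 CPM in Ctrl (log2 fold change -0.96, adjusted p = 0.185). The Ctrl spread of Etv4 came largely from Ctrl 6, at 38.2 CPM, and without Ctrl 6 the log2 fold change was -0.58. For Etv5, without Ctrl 6, it was -0.45.

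**Figure D4:**
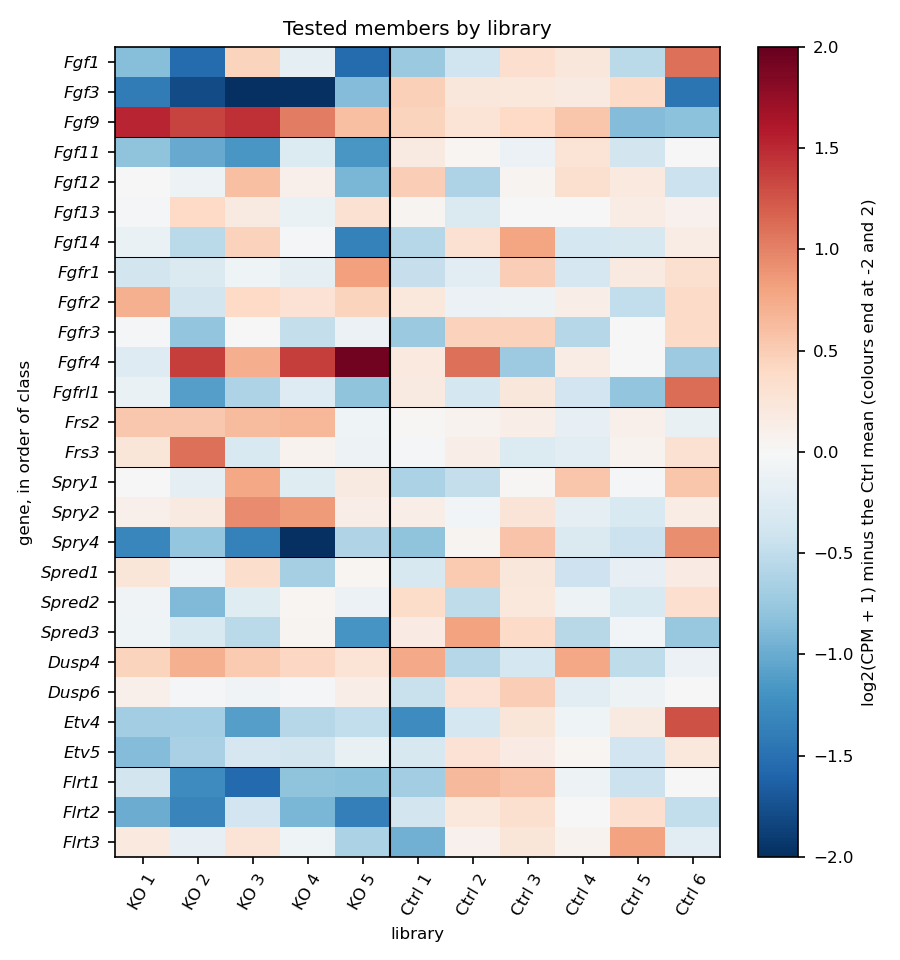
log2(CPM + 1) of the 27 tested genes (rows, by class) in each library (columns, KO left of Ctrl), minus the mean of the Ctrl libraries; red is higher and blue lower. Fgf3, Fgf11 and Flrt2 are blue across the KO columns and Fgf9 is red, and Ctrl 6 is the lowest Ctrl column for Fgf3 and the highest for Fgf1, Fgfrl1, Spry4 and Etv4.

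Flrt2 (chromosome 12, 95692226 to 95785215) gave the smallest adjusted p of the 27 tested genes. It stood at 76.7, 60.9, 118, 81.1 and 59.1 CPM in KO 1 to KO 5, and at 110, 166 and 195 CPM in the lowest, median and highest Ctrl library. Only KO 3 reached the Ctrl range, above Ctrl 6 and just below Ctrl 1 at 119 CPM. KO cells held 0.501 times the level of Ctrl cells (log2 fold change -1.0, SE 0.203, adjusted p = 0.0111). The call held in all 11 fits without 1 library (adjusted p from 0.00372 to 0.0344), whereas among the 7 libraries without Y-linked counts the log2 fold change was -1.13 with an adjusted p of 0.0543.

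Flrt3 had the higher level per length and did not pass the test. It stood at 139, 107, 146, 113 and 77.1 CPM in KO 1 to KO 5, and at 61.1, 127 and 210.1 CPM in the lowest, median and highest Ctrl library (log2 fold change -0.14, SE 0.246, adjusted p = 0.833). Among libraries without Y-linked counts the log2 fold change of Flrt3 was -0.52 (SE 0.2495, adjusted p = 0.451). Flrt1, the weakest of the family, averaged 2.45 ± 1.07 CPM in KO and 5.81 ± 2.50 CPM in Ctrl (log2 fold change -1.24, SE 0.402, adjusted p = 0.111). The difference between the fold changes of Flrt2 and Flrt3 was not tested.

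Of 7 tested Flrt partners 2 rose, both UNC5 receptor genes, and 5 did not pass. Over all tested genes 2.52% were called higher and 2.74% lay higher without overlap. Unc5d stood at 54.9, 35.6, 94.3, 70.4 and 46.2 CPM in KO 1 to KO 5, and at 10.1 to 27.7 CPM in the Ctrl libraries. The groups did not overlap and the log2 fold change was 1.63 (SE 0.271, adjusted p = 0.00261), with the call kept in all 11 fits without 1 library. Unc5b, with 4.30 to 10.1 CPM in KO and 0.241 to 3.15 CPM in Ctrl, also did not overlap (log2 fold change 2.06, adjusted p = 0.0247), and its call was lost without Ctrl 4, KO 1, KO 4 or KO 5 (adjusted p from 0.0508 to 0.0755). Unc5c, Unc5a and the latrophilin genes Adgrl1, Adgrl2 and Adgrl3 did not pass, with log2 fold changes of 1.47, 0.55, -0.30, -0.41 and 0.16. Both Unc5d and Unc5b missed the threshold among libraries without Y-linked counts, at log2 fold changes of 1.62 and 2.46 (adjusted p = 0.0683 and 0.0529).

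Beside Flrt2, striatal projection neuron markers were lower in KO. Of 12 tested markers 6 fell and 1 rose, where 1.62% of all tested genes were called lower and 2.52% higher. Their summed level was 371 to 592 CPM in KO and 687 to 2063 CPM in Ctrl, without overlap. Ctrl 2, Ctrl 3 and Ctrl 5 were the highest 3 in both measures, with Flrt2 at 178 to 195 CPM and the markers at 1528 to 2063 CPM. This order was not particular to striatal markers. The same 3 libraries were the highest of Ctrl for summed mitosis markers, at 458 to 685 CPM, and summed Flrt partners, at 199 to 258 CPM. Within KO the order differed, since KO 3 had the most Flrt2 and the second lowest marker sum. The summed MGE interneuron markers, given above, did not overlap between groups either, and no background share was counted for such sums. The part of either cell type in the level of Flrt2, Fgf3, Fgf11, Unc5b or Unc5d was not tested.

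**Figure D5:**
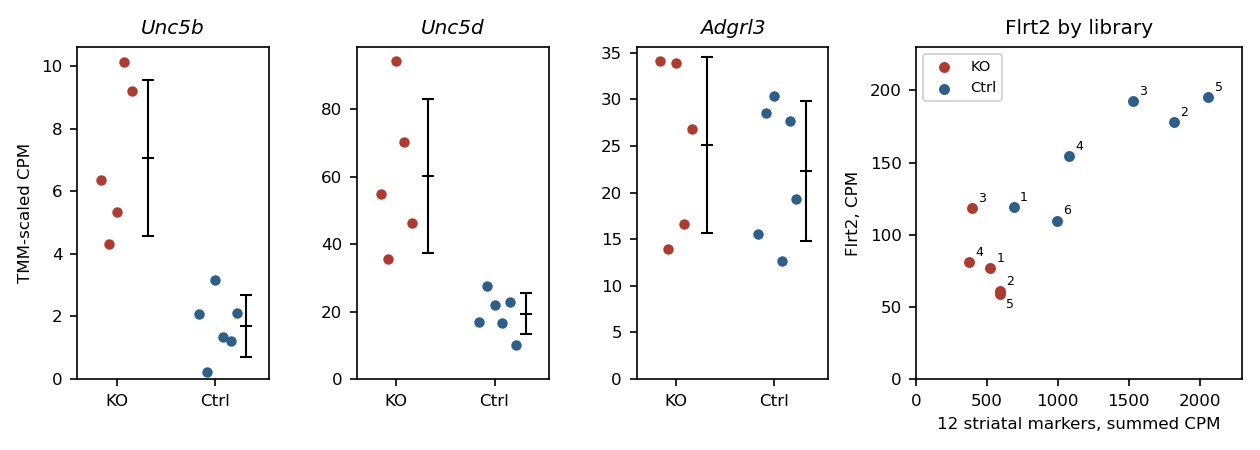
Left panels: TMM-scaled CPM (y) of Unc5b, Unc5d and Adgrl3 in 5 KO (red) and 6 Ctrl (blue) libraries with mean ± SD. Right panel: Flrt2 CPM (y) against the summed CPM of 12 striatal markers (x), each point a library with its number. Unc5b and Unc5d do not overlap between groups, Adgrl3 does, and KO points lie at marker sums below 600 CPM and Ctrl points above.

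Other genes of the pathway were taken by list, beside 630 of 15227 genes called in either direction over the whole table. Of all tested genes 2.74% lay higher and 1.93% lower without overlap. Of 24 tested RAS-ERK genes, from Grb2 to the RSK kinases, Rps6ka2, which encodes one of these kinases, fell and 23 did not pass. Rps6ka2 averaged 24.2 ± 7.74 CPM in KO and 45.1 ± 12.04 CPM in Ctrl, without overlap (log2 fold change -0.90, adjusted p = 0.0487). The median log2 fold change of the 24 was 0.06. None of the 9 other tested feedback genes passed. The highest, Dusp1 and Rasa3, had log2 fold changes of -0.05 and -0.64 (adjusted p = 0.924 and 0.0671). Rasa3 did not overlap between groups, with 57.1 to 74.6 CPM in KO and 82.2 to 171.5 CPM in Ctrl. Among 13 other ETS and ERK-responsive genes Myc, a growth-promoting transcription factor gene, fell and 12 did not pass, Egr1 and Fos among them. Myc stood at 31.3, 29.4, 35.7, 25.4 and 20.1 CPM in KO 1 to KO 5 and at 42.3 to 61.4 CPM in the Ctrl libraries, without overlap (log2 fold change -0.92, SE 0.167, adjusted p = 0.00471), and its call held in all 11 fits without 1 library but was lost among libraries without Y-linked counts (log2 fold change -0.94, adjusted p = 0.0941). Of 10 mitosis markers 3 fell, with a summed level of 224 to 383 CPM in KO and 340 to 685 CPM in Ctrl; their part in the level of Myc was not tested.

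Heparan sulfate presents FGFs to their receptors. Of 14 tested genes of its synthesis and editing Hs3st2, a sulfotransferase gene, fell (9.89 ± 2.72 CPM in KO and 19.3 ± 4.04 CPM in Ctrl, log2 fold change -0.96, adjusted p = 0.0388) and 13 did not pass. Sulf1, an endosulfatase gene named after its values were seen, averaged 15.2 ± 6.23 CPM in KO and 4.42 ± 3.73 CPM in Ctrl (log2 fold change 1.79, SE 0.537, adjusted p = 0.0844). Of 12 core protein and carrier genes Gpc4, a glypican gene, rose (56.7 ± 13.1 CPM in KO and 33.4 ± 8.44 CPM in Ctrl, log2 fold change 0.76, adjusted p = 0.0434) and 11 did not pass. Gpc3, also named after its values were seen, had 3.30 to 6.07 CPM in KO and 0 to 3.03 CPM in Ctrl, without overlap (log2 fold change 1.24, SE 0.567, adjusted p = 0.282). The calls of Rps6ka2, Hs3st2 and Gpc4 held in 1, 2 and 3 of 11 fits without 1 library. Among libraries without Y-linked counts all 3 were lost, with log2 fold changes of -0.91, -0.65 and 0.82 (adjusted p = 0.267, 0.529 and 0.203). The remaining ligand genes Fgf4, Fgf6, Fgf21 and Fgf23 were below the level for testing, with Fgf4 and Fgf6 at 0 counts throughout.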

How the data were processed

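RNA was measured in 11 libraries of sorted GFP+ V-SVZ cells, 5 KO and 6 Ctrl by the labels. The authors deposited whole-number counts of reads for each Ensembl gene. The submitters' processing notes name TopHat2 2.0.13, featureCounts 1.4.6, mm10 and GRCm38. The annotation release and strand setting were not given in the sources used here. Symbols, coordinates and exon lengths came from GENCODE M21 (GRCm38), which with a table of gene names matched 37693 of 39179 identifiers, and promoters from RefSeq (GRCm38.p6; 27 members had a window). Chi-square per degree of freedom between replicates was at least 13.7, so the libraries differed by more than counting error. This cannot show whether they came from separate animals. Each library was counted as 1 sample.

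Counts were fitted with edgeR 4.0.16 in R 4.3.3 over all 15227 genes with a mean library-total CPM of at least 0.5: TMM scaling, quasi-likelihood test with robust estimation, Benjamini-Hochberg adjustment over all genes, threshold 0.05. CPM values of genes and lists are TMM-scaled; Zeb2 and the filter use library totals. Members, classes and lists were chosen with earlier results of these data known. Full values are given for members past the threshold, members whose groups do not overlap, and the 2 highest per kilobase in each class; from other lists, for up to 4 genes past the threshold, or the 2 highest where none passed. On simulated counts with 200 of 15227 genes changed between KO and Ctrl, the test recovered 38% of 2-fold and 81% of 4-fold changes; 8 of 127 calls were unchanged genes. Alternatives were RLE and library-total scaling, filterByExpr, no filter, a stricter filter (5 libraries with a CPM of 1 or more), limma-voom (limma 3.58.1), DESeq2 1.42.0, a replicate block, the Y-linked level as a covariate, libraries without Y-linked counts, and leaving out each library.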

Additional observations from a re-analysis of the deposited data

Results flagged for a closer look

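In 4 of 54 groups of libraries examined (27 tested genes, 2 groups each) a single library stood apart from the rest by a gap test on log2(CPM + 1), where chance flags about 1 in 20 groups. In KO, Fgfr1 was highest in KO 5, at 48.6 CPM against 20.95 to 25.75 CPM in the other KO libraries, and Frs2 was lowest in KO 5, at 35.8 CPM against 55.6 to 60.9 CPM. In Ctrl, Fgf3 was lowest in Ctrl 6, at 2.77 CPM against 10.7 to 13.4 CPM in the other Ctrl libraries, and Fgf13 was lowest in Ctrl 2, at 136.5 CPM against 167 to 184 CPM. KO 5 also had the high choroid plexus sum, which was mostly Ttr, and Ctrl 6 the most oligodendrocyte precursor markers. Whether these bear on the 4 values was not tested.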

How the results depend on the processing

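With 630 genes called over the table, DESeq2 called 1134, the replicate block 388, the Y-linked covariate 166 and the libraries without Y-linked counts 200; leaving out a library gave 392 to 632. Of the members, 3 were lower and 0 higher; DESeq2 gave 5 and 2, adding Spry4, Flrt1, Fgf9 and Frs2. With the Y-linked covariate, and in libraries without Y-linked counts (2 Ctrl against 5 KO), 0 were lower; Flrt2 had log2 fold changes of -1.09 and -1.13 there (adjusted p = 0.0796 and 0.0543). Leaving out a library gave 1 to 3 lower and 0 to 1 higher, where Frs2 was past the threshold without KO 5, as was Spry4 (adjusted p = 0.04998). Fgf3 missed the threshold with limma-voom (adjusted p = 0.0545), and Fgf11 without a filter and with the block (0.0883 and 0.0800); the causes were not tested. RLE and library-total scaling, filterByExpr and the stricter filter kept 3 lower and 0 higher. Scn1a, Gpc4, Hs3st2, Rps6ka2 and Unc5b also missed the threshold with the block (adjusted p = 0.134, 0.0916, 0.141, 0.0760 and 0.0506), and Rps6ka2 with RLE scaling (0.0510). The calls of Gpc4, Hs3st2 and Rps6ka2 each held in 6 of the 10 alternatives other than leaving out a library. Of the genes refitted under every setting (the 27 members, Myc, Rps6ka2, Hs3st2, Gpc4, Scn1a, Unc5b and Unc5d), no called gene changed sign; 11 members that did not pass changed sign in some fit. Replicate numbers are shared by name only: deviations of same-numbered libraries correlated at -0.16 to 0.02, 0 of 5 KO libraries correlated best with their own number, and the replicate block left 2 members lower and 0 higher. Fgf8, Fgf16, Fgf17 and Fgf20, with at most 4 counts in all, could not be compared at this depth.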
